A study of Mus musculus with 4 samples.

Results

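The peaks described here lie in 2 stretches of the mouse genome, from 45 to 50 Mb on chromosome 15, around the gene Csmd3, and from 95 to 100 Mb on chromosome 2, around the gene Lrrc4c. They come from a map of MBD1 in adult C57BL6 mice, aged around 9 weeks, of a line that carries FLAG-tagged Mbd1. Dentate gyrus, a part of the hippocampus, gave 2 libraries of chromatin precipitated with anti-FLAG antibody (ChIP) and 2 of input DNA made with no antibody. All 4 libraries came from the tagged line, and no ChIP from untagged animals was among them, so background of the antibody cannot be told apart from tagged protein. The labels do not say how many animals gave each library or whether animals were pooled. The authors deposited 1 list of 37778 peaks for the 4 libraries together, on the mm9 assembly, and 467 of these have their midpoint in the windows, 238 around Csmd3 and 229 around Lrrc4c. The windows were chosen by their peak number in this same list, so their high density, and every value from the same contrast of ChIP with input, is given as a description without a test. Because the list has no value per library, no difference below was set against replicate error, and depth per library is unknown. Intervals are at the 95% level and reflect only counting error, or for medians the spread from peak to peak.

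MBD1 belongs to the family of proteins with a methyl-CpG-binding domain, which recognise DNA methylated at CpG and are linked to silenced chromatin, and it has been studied in the adult neural stem cells of the dentate gyrus. Csmd3 encodes a very large transmembrane protein with CUB and sushi domains that is expressed in the brain. Lrrc4c encodes netrin-G ligand 1 (NGL-1), an adhesion protein of the postsynaptic membrane with leucine-rich repeats. Both genes are very long and stand in gene-poor surroundings. In the RefSeq gene order of GRCm38.p6, used here for names only, the nearest protein-coding genes on the 2 sides of Csmd3 are Kcnv1, a modulatory subunit of potassium channels, and Trps1, a GATA-type zinc finger repressor. Those on either side of Lrrc4c are Api5, an inhibitor of apoptosis, and Iftap, a protein associated with intraflagellar transport. Between the starts of Kcnv1 and Csmd3, 12 non-coding genes or pseudogenes begin, and 11 begin between those of Csmd3 and Trps1. The corresponding counts for Lrrc4c are 12 and 14. Such entries can lie inside the coding genes. On mm9 the borders of the genes were taken as 47.4 and 48.6 Mb for Csmd3 and as 96.1 and 97.5 Mb for Lrrc4c, values rounded to 0.1 Mb. Below, the lower flank is the part of a window before the gene in coordinates and the upper flank the part after it, and no statement is made about which end of a gene is its promoter.

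Peaks were more crowded in both flanks of Csmd3, and in the upper flank of Lrrc4c, than in the genes themselves. Csmd3 took up 24% of its window and held 13% of the window's peaks and 8.13% of the bases that peaks covered. Lrrc4c took up 28% of its window and held 20.5% of the peaks and 17.6% of the covered bases. Over the windows as a whole there were 47.6 peaks per Mb around Csmd3 and 45.8 around Lrrc4c, against 15.6 on all autosomes. Peaks covered 19.4% and 17.5% of the windows, against 6.14% of the autosomal span. By peak number they ranked 7 and 9 among 465 autosomal windows of 5 Mb, whose median was 58 peaks.

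Neighbouring windows held fewer peaks. On chromosome 15 the windows next to that of Csmd3 held 99 peaks (40 to 45 Mb) and 121 peaks (50 to 55 Mb). On chromosome 2 those next to that of Lrrc4c held 32 peaks (90 to 95 Mb) and 63 peaks (100 to 105 Mb). The first peak inside the Csmd3 window, from 45029410 to 45032599, had a log2 ratio of 1.82, and the last before it, from 44927403 to 44930036, had 1.18. At the other end the last peak inside, from 49984691 to 49989986, had 1.22 and the next, from 49998000 to 50006320, had 1.66. The first and last peaks of the Lrrc4c window, from 95015044 to 95018835 and from 99995200 to 99998300, had ratios of 1.16 and 1.77. Just outside it, peaks from 94964600 to 94965942 and from 100025883 to 100026709 had 2.30 and 2.33. This log2 ratio was read as the authors' mean over the bins of a peak of log2 of ChIP over input, after their scaling of input to ChIP.

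Along the Csmd3 window, in steps of 0.5 Mb, peak number was high on both sides and fell to its lowest over the gene. The 5 steps from 45 to 47.5 Mb held 23, 29, 26, 30 and 23 peaks. The steps from 47.5 to 48 Mb and from 48 to 48.5 Mb, which lie wholly in Csmd3, held 15 and 11. The 3 steps from 48.5 to 50 Mb held 24, 29 and 28. Among 4789 autosomal steps of this size the median was 4 peaks and the 90th percentile 21, so 8 of the 10 steps of this window were at or above that percentile and the 2 steps inside the gene were not. Even the sparsest step, with 11 peaks, was above the autosomal median; 27.8% of autosomal steps held as many or more. Peaks covered 31% of the step from 46.5 to 47 Mb, the densest, and 4.87% of that from 48 to 48.5 Mb.

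**Figure D1:**
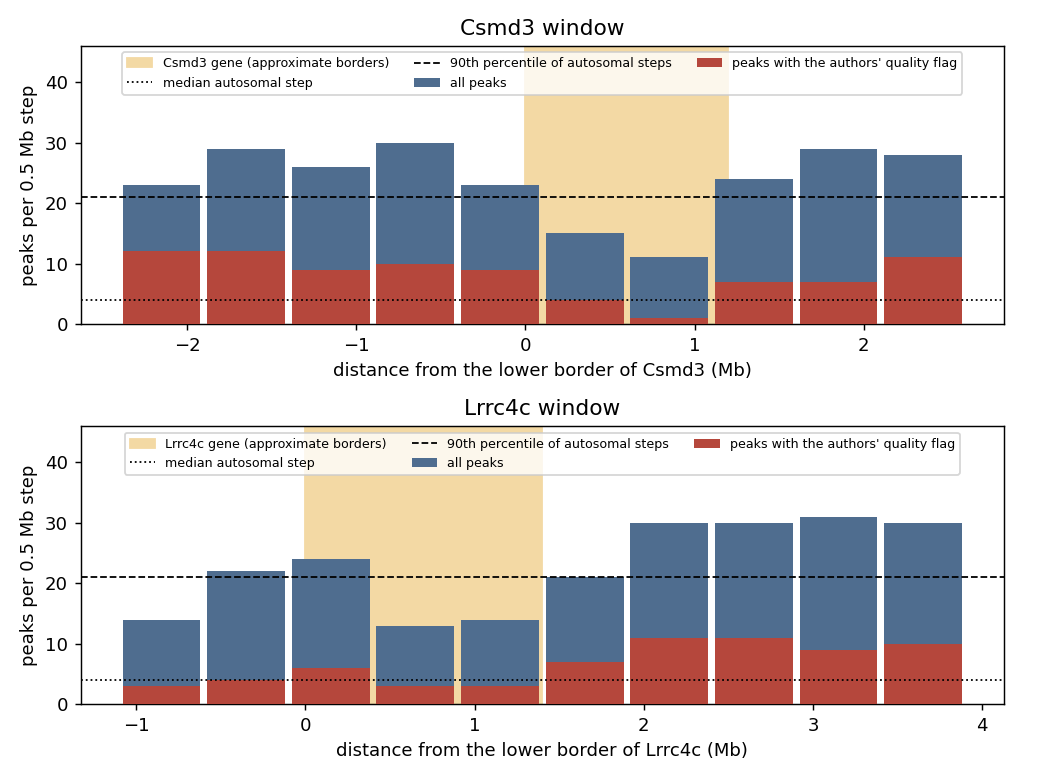
Number of peaks in each 0.5 Mb step of the Csmd3 window (top) and the Lrrc4c window (bottom), against distance in Mb from the lower border of the gene; blue bars are all peaks, the red bars drawn in front are those with the authors' quality flag, the shaded area is the gene, and the lines are the median (4) and the 90th percentile (21) of autosomal steps. The lowest bars of the Csmd3 window (15 and 11 peaks) lie over the gene, whereas the Lrrc4c window is low over most of the gene (13 and 14) and also in its first step (14).

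Csmd3 held 31 peaks in 1.2 Mb, or 25.8 per Mb, against 128 peaks (53.3 per Mb) in the lower flank and 79 peaks (56.4 per Mb) in the upper flank. The density in the gene was thus 0.474 times that in the flanks together (interval 0.314 to 0.694), 0.484 times that of the lower (0.316 to 0.722) and 0.458 times that of the upper flank (0.292 to 0.702). The density of the lower flank was 0.945 times that of the upper, with an interval that held 1 (0.709 to 1.27). Compared with all autosomes the gene was still 1.65 times as dense (1.12 to 2.34) and the lower and upper flanks 3.41 and 3.61 times as dense. The window was chosen for its peak number, so this interval, of counting error only, does not show how unusual the gene is. In covered bases the contrast was wider, since peaks covered 6.56% of the gene and 23.4% of the flanks, a ratio of 0.280. In steps of 0.1 Mb each of the 12 steps of the gene held between 1 and 4 peaks, while the 10 steps within 0.5 Mb of it held between 3 and 9. Peaks were found along the whole gene, 18 in its lower and 13 in its upper 0.6 Mb.

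The stretches without a peak were longest inside Csmd3. The 4 longest gaps of its window all lay in the gene: 123830 bp from 48163800 to 48287629, 102590 bp from 48033276 to 48135865, 95739 bp from 47561400 to 47657138 and 76406 bp from 48395600 to 48472005. The longest gap of the window outside the gene was 71759 bp, from 45084057 to 45155815. The median gap was 27.6 kb in the gene, 8.77 kb in the lower flank and 9.86 kb in the upper flank.

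Peaks in Csmd3 were also narrower than those beside it. Their median width was 2396 bp (1468 to 2993) against 3559 bp (3030 to 4062) in the flanks. Of the 31 gene peaks 6.45% were 5 kb wide or more, against 27.1% of the 207 flank peaks and 24.9% of autosomal peaks. All 12 peaks of 10 kb or more in the window lay in the flanks. On all autosomes 1622 of 37637 peaks were that wide, so their absence among 31 gene peaks says little about the gene. The widest, from 48967888 to 48984042 (16155 bp), held 52.7 ChIP reads and 9.13 input reads per bin, where bins were about 200 bp wide. The next, from 45069648 to 45084056 (14409 bp) and from 46787449 to 46801199 (13751 bp), held 53.7 and 55.5 ChIP reads per bin. These 3 wide peaks were shallow, with log2 ratios of 1.56, 1.32 and 1.32.

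The widest peak of Csmd3 itself stood at the gene's lower border, from 47406250 to 47414334 (8085 bp), and was the peak nearest that border. Its highest bin held 200 ChIP reads, the largest number in the window, where the next highest was 126. The excess was local: its mean of 58.3 ChIP over 9.83 input reads per bin gave an ordinary log2 ratio of 1.29, and its highest bin was 3.43 times its mean. Summed over its bins, ChIP was 2.45 times the scaled input (2.20 to 2.73). The peak nearest the upper border, from 48626830 to 48631389, had a highest bin of 68 and a log2 ratio of 1.11. Its midpoint lay 29.1 kb outside the rounded border, so its side of the true border is unknown too.

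Of the 3 steepest ratios of the window 2 lay in Csmd3, and all 3 stood over little input. From 47814262 to 47816300, in the gene, 64.8 ChIP reads per bin stood over 3.45 input reads, with a log2 ratio of 3.55, and summed ChIP was 7.76 times the scaled input (5.60 to 11.1). From 47945276 to 47946348, also in the gene, 39.2 ChIP reads stood over 1.83, with a log2 ratio of 3.34 and an 8.83-fold sum (4.85 to 17.9) that rested on 11 input counts. In the lower flank, from 47114430 to 47115486, 54.3 ChIP reads stood over 2.33, with a log2 ratio of 3.16 and a 9.62-fold sum (5.65 to 17.8) from 14 input counts. A peak is called input-poor here if its input was below 0.25 times the median input over the list, which was 11.9 reads per bin. The window had 3 of them (1.26%, exact interval 0.26 to 3.64%), near the 0.93% of all autosomal peaks. They were the last 2 just named and another in the gene from 48514608 to 48515744. The latter had 54.2 ChIP over 2.83 input reads per bin and a 7.90-fold sum (4.86 to 13.7). The ChIP counts of these 3 peaks lay below the window's median of 55.6, so in them the ratio was high with low input and without high ChIP.

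Peaks with the most ChIP reads had ordinary ratios. A narrow peak of 800 bp in Csmd3, from 48001400 to 48002199, had the highest mean ChIP of the window, 80 reads per bin against 12.8 in input, with a log2 ratio of 1.46. In the flanks, 75.4 ChIP reads per bin stood over 14.9 from 49713600 to 49715783, and 72.7 over 14.3 from 47051822 to 47052855, with log2 ratios of 1.23 and 0.99. The smallest ratios of the window were 0.72 from 48029608 to 48033275 in the gene, 0.75 from 48687200 to 48690199 and 0.75 from 46687821 to 46693173, over 15.2, 16.6 and 17.0 input reads per bin. Low and high ratios thus both occurred inside the gene.

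Around Lrrc4c the gene was much sparser than its upper flank and differed less from its lower flank. In steps of 0.5 Mb the window held 14, 22, 24, 13, 14, 21, 30, 30, 31 and 30 peaks from 95 to 100 Mb. The 4 steps from 98 to 100 Mb were the densest of the window and the step from 96.5 to 97 Mb, wholly in the gene, the sparsest. Of the 10 steps, 7 were at or above the autosomal 90th percentile. Steps with at least 30 peaks were rare on the autosomes, at 1.86% of all. Within the gene peak number was uneven. In steps of 0.1 Mb, the 4 steps from 96.1 to 96.5 Mb held 4 to 6 peaks each, the 10 steps from 96.5 to 97.5 Mb held 1 to 5, and the 10 steps beside the gene held 3 to 7. The lower 0.7 Mb of the gene held 27 peaks and the upper 0.7 Mb 20.

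Lrrc4c held 47 peaks in 1.4 Mb, or 33.6 per Mb, against 40 peaks (36.4 per Mb) in the lower flank and 142 (56.8 per Mb) in the upper flank. Its density was 0.664 times that of the flanks together (interval 0.471 to 0.920), but this rested on the upper flank. Against that flank the ratio was 0.591 (0.416 to 0.827), and against the lower flank it was 0.923 (0.593 to 1.44), an interval that held 1. The lower flank was 0.640 times as dense as the upper (0.439 to 0.915). With flanks of 1 Mb on either side in place of the rest of the window the ratio was 0.763 and its interval (0.524 to 1.10) held 1. Compared with all autosomes the gene was 2.15 times as dense (1.58 to 2.85), with the same limit as for Csmd3 from the choice of the window. Peaks covered 11.0% of the gene, 15.3% of the lower flank and 22.1% of the upper flank.

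Gaps in Lrrc4c were of the length of those in its lower flank, and widths were similar in the 3 stretches. The longest gap of the window, 96614 bp from 95221252 to 95317865, lay in the lower flank, followed by 94431 bp from 97399569 to 97493999 in the gene. The median gap was 18.8 kb in the gene, 20.1 kb in the lower and 8.82 kb in the upper flank. The median width of 3038 bp (2539 to 3570) in the gene overlapped in its interval that of the lower flank, 3356 bp (2612 to 4200), and of the upper flank, 3258 bp (2813 to 3715). The widest peaks lay outside the gene, from 99628020 to 99650785 (22766 bp, log2 ratio 1.30), from 95711842 to 95728399 (16558 bp, 1.06) and from 95656631 to 95669186 (12556 bp, 0.98). Within the gene the widest, chosen after its values were seen, was 7877 bp, from 97122976 to 97130852, with a log2 ratio of 1.19. The peak nearest the lower border, from 96093156 to 96096399, lay 5.2 kb outside the rounded border with a log2 ratio of 0.94. The peak nearest the upper border, from 97494000 to 97498035, lay just inside it with 1.29.

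The highest ratio of the Lrrc4c window stood 79.1 kb beyond the gene's rounded upper border, where input was absent. From 97578919 to 97579248, a peak of 330 bp, the narrowest of the window, had 44.7 ChIP reads per bin and no input read, with a deposited log2 ratio of 5.50. A ratio over no input depends on what is added to it. With 3 input counts taken as the most that an observed 0 allows, ChIP was at least 18.5-fold higher than the scaled input. It was the only input-poor peak of this window (0.44%, against 0.93% of all autosomal peaks). In the gene, from 96807826 to 96809399, 45.0 ChIP reads stood over 3.75 input reads per bin, with a log2 ratio of 3.27 and a 4.96-fold sum (3.41 to 7.46). In the upper flank, from 99861890 to 99863458, 41.3 stood over 3.89, with a log2 ratio of 3.05 and a 4.39-fold sum (3.10 to 6.40). In all 3 the mean ChIP count was below the window's median of 56.5 reads per bin.

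A pair of neighbouring peaks in the upper flank had the highest ChIP of the window after the peak of very high input described next. From 98175418 to 98181891 (6474 bp) the mean was 112.5 ChIP reads per bin over 11.9 of input, close to the list's median input. Its highest bin held 455 reads, 4.04 times its own mean, and summed ChIP was 3.91 times the scaled input (3.52 to 4.34). The peak before it, from 98169349 to 98170833, had 98.8 ChIP reads over 19.1 of input, a highest bin of 237 and a 2.14-fold sum (1.81 to 2.53), and its input was also the highest among the other 228 peaks. Apart from these 3 peaks, no bin in the window exceeded 129 reads, a value reached in the gene from 96180600 to 96183779. The smallest log2 ratios of the window, 0.70 from 98706200 to 98708840, 0.73 from 95943515 to 95946599 and 0.74 from 99333404 to 99335857, were found in the flanks.

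One peak of the Lrrc4c window was unlike all the others. From 98502143 to 98505600 (3458 bp), in the upper flank 1004 kb beyond the gene's rounded border, ChIP averaged 227445 reads per bin and input 56480. Its highest bin held 859266 ChIP reads. Summed ChIP was 1.66 times the scaled input (1.66 to 1.67), a shallow excess on enormous counts in ChIP and input alike. Whether its sequence occurs elsewhere in the genome was not tested. Together the peaks of the window held 915030 ChIP reads per Mb of genome with this peak and 50740.2 without it, against 54317 in the Csmd3 window. Number, covered bases and medians were little affected by it: without it the window had 228 peaks, 17.4% coverage and a median log2 ratio of 1.40.

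Enrichment in the windows was shallow but above the autosomal middle. The median log2 ratio was 1.48 (1.41 to 1.56) around Csmd3 and 1.40 (1.31 to 1.45) around Lrrc4c, against 1.20 (1.20 to 1.21) on all autosomes. ChIP counts were not higher: the medians were 55.6 and 56.5 reads per bin, below the autosomal 58.8. Input was lower, with medians of 9.61 and 10.6 reads per bin against 11.9. The part of low input in the ratio was not tested. Across the 466 peaks without that of very high input, Spearman's rho of input with the log2 ratio was -0.91, and of ChIP with the log2 ratio -0.50. Over all autosomal peaks, those of very high input left out, the values were -0.85 and -0.42, so these relations are not particular to the windows. Input is the denominator of the ratio, and all points come from the same 4 libraries. Wider peaks had slightly lower ratios (rho -0.33, and -0.25 over all autosomes).

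**Figure D2:**
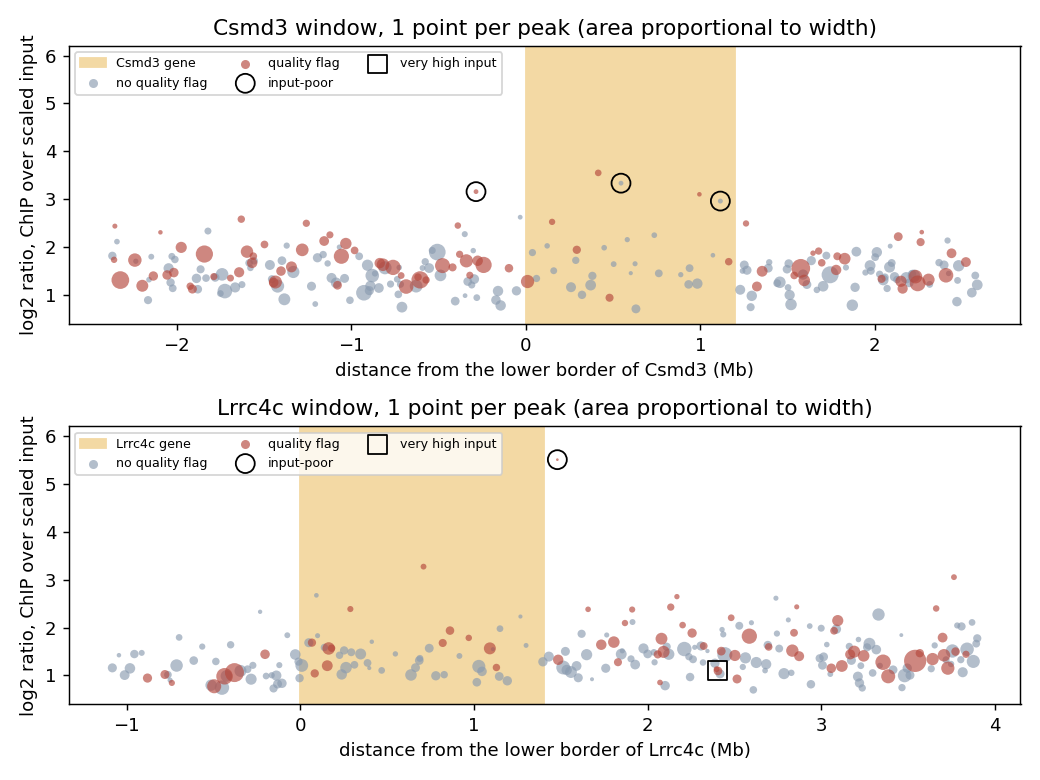
Deposited log2 ratio of each peak against distance in Mb from the lower border of Csmd3 (top) and Lrrc4c (bottom); point area is proportional to peak width, red points carry the authors' quality flag, circles mark input-poor peaks, squares the peak of very high input, and the shaded area is the gene. The middle 50% of peaks lie between 1.25 and 1.76 in the Csmd3 window and between 1.13 and 1.64 in the Lrrc4c window, and the highest value, 5.50, belongs to the peak without input beyond Lrrc4c.

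In Csmd3 the median log2 ratio was 1.65 (1.40 to 1.95) against 1.45 (1.40 to 1.56) in the flanks, with overlapping intervals. When peaks were weighted by width the order turned, to 1.40 in the gene and 1.43 in the flanks. Median input was 8.45 reads per bin (7 to 10) in the gene and 9.64 (9.15 to 10) in the flanks, and median ChIP 54.6 and 55.6. In Lrrc4c the median ratio of 1.42 (1.21 to 1.57) was close to the 1.44 (1.37 to 1.51) of the upper flank. The lower flank of Lrrc4c was the exception, with a median ratio of 1.08 (0.99 to 1.22) and the highest input of the 6 stretches, 12.7 reads per bin (11.1 to 13.7), against 10.1 in the gene and 10.1 in the upper flank. Its median ChIP count was also the highest, 58.8 reads per bin. In that flank density, input and ratio were therefore all nearer to the autosomal values than in the other flanks.

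**Figure D3:**
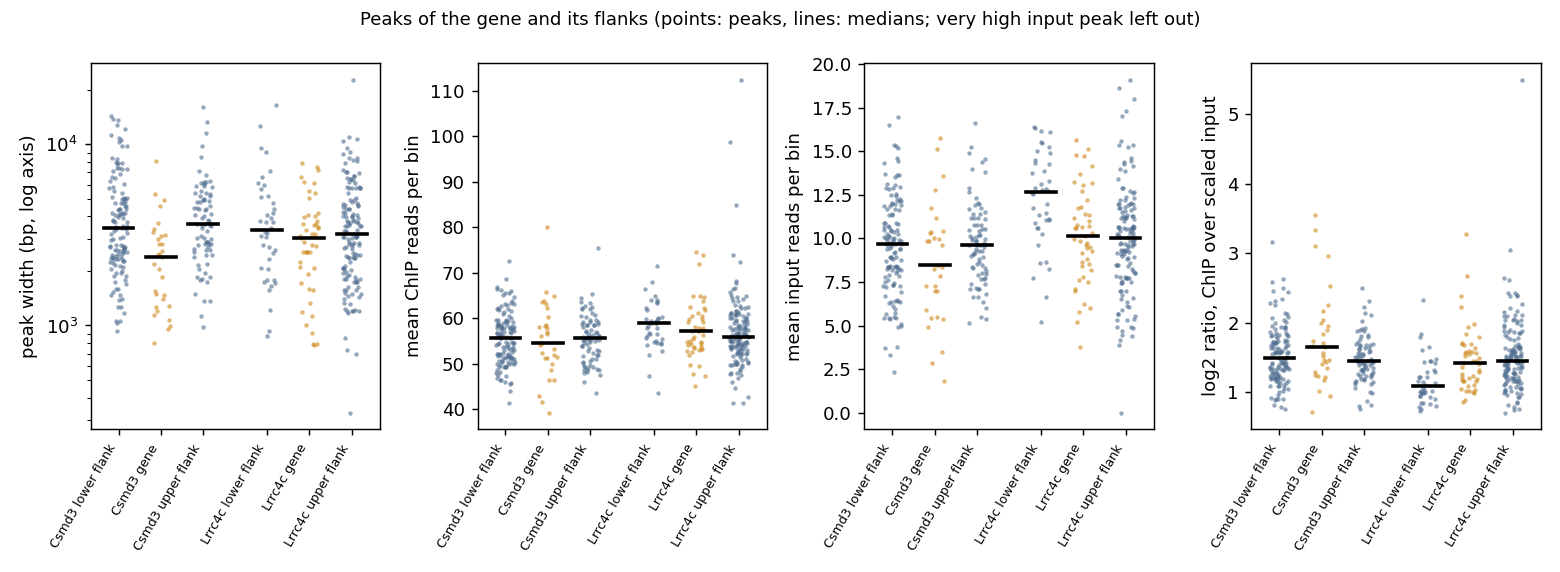
Width in bp (log axis), mean ChIP and mean input reads per bin, and log2 ratio of every peak in the lower flank, gene and upper flank of both windows, without the peak of very high input; points are peaks and lines are medians. Peaks of Csmd3 are the narrowest (median 2396 bp), and those of the lower flank of Lrrc4c have the highest input (12.7) and the lowest ratio (1.08).

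The authors' own marks of confidence gave the windows no special place. Their quality flag, which coincided in this list with a smallest p over bins of at most 0.0001, was carried by 30.8% of the whole list. In the Csmd3 window it was carried by 82 of 238 peaks (34.5%, exact interval 28.4 to 40.9%) and in the Lrrc4c window by 67 of 229 (29.3%, 23.5 to 35.6%). In Csmd3 it was carried by 7 of 31 peaks (22.6%, 9.59 to 41.1%) against 75 of 207 in the flanks (36.2%, 29.7 to 43.2%). In Lrrc4c it was carried by 12 of 47 peaks (25.5%, 13.9 to 40.3%) against 55 of 182 (30.2%, 23.6 to 37.5%). Flagged peaks of the Csmd3 window were wider than the others (median 4145 against 3045 bp) with equal ChIP (55.6 and 55.6 reads per bin).

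Peaks with a mean p over bins of at most 0.05 made up 3.17% of the list. They numbered 5 in each window, 2.10% and 2.18% of its peaks. Around Csmd3 all 5 lay in the lower flank and around Lrrc4c all 5 in the upper flank. None lay in a gene, where the exact interval reached up to 11.2% for 0 of 31 peaks and up to 7.55% for 0 of 47. The smallest mean p of the Csmd3 window, 0.0187, belonged to a peak of 7122 bp from 45799017 to 45806138 with 60.1 ChIP over 8.22 input reads per bin and a 3.02-fold sum (2.67 to 3.42). It was followed by peaks from 46029200 to 46030993 (3.95-fold, 2.99 to 5.32) and from 46204400 to 46208325 (2.94-fold, 2.47 to 3.52). The other 2, named after their values were seen, ran from 46863000 to 46865280 and from 46918000 to 46928363, with log2 ratios of 1.93 and 1.62. In the Lrrc4c window these peaks were the one without input, the one of very high input, the one from 98175418 to 98181891, one from 99795084 to 99799492 (2.96-fold, 2.53 to 3.48) and, named after its values were seen, one from 98011082 to 98012719 (4.28-fold, 3.18 to 5.88).

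A log2 ratio above 2 was found in 7.73% of the list. It was found in 30 peaks around Csmd3 (12.6%, exact interval 8.67 to 17.5%) and in 27 around Lrrc4c (11.8%, 7.92 to 16.7%). Inside Csmd3 it was found in 8 of 31 peaks (25.8%, 11.9 to 44.6%) against 22 of 207 in the flanks (10.6%, 6.78 to 15.6%). All 8 were narrow, from 962 to 2039 bp, below the gene's median of 2396 bp. The part of width in this share was not tested. Of the 8, the 5 not yet given were named after their values were seen. They had log2 ratios of 2.03 (47522000 to 47523399), 2.53 (47550004 to 47551845), 2.16 (47981079 to 47982347), 2.25 (48135866 to 48137356) and 3.11 (48394638 to 48395599), over 4.90 to 7.29 input reads per bin. In the same order, summed ChIP was 3.20, 3.50, 3.26, 3.94 and 4.61 times the scaled input. All but the last were below the 4-fold that a log2 ratio of 2 stands for, and each interval held 4. The shares above 2 were not recomputed from summed counts, in the gene or in the flanks. Inside Lrrc4c it was found in 4 of 47 peaks (8.51%, 2.37 to 20.4%), near the share in the whole list, against 23 of 182 in the flanks (12.6%, 8.18 to 18.4%). The flanks of Lrrc4c were uneven, with 1 of 40 peaks (2.5%) in the lower and 22 of 142 (15.5%) in the upper. Besides the one at 3.27, those in the gene were, named after their values were seen, from 96191200 to 96192199 (2.67), from 96386421 to 96388145 (2.39) and from 97366203 to 97366995 (2.23).

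Set beside 2 other dense windows, both windows had fewer and narrower peaks, with median log2 ratios in the same range. From 55 to 60 Mb on chromosome 5 there were 288 peaks, which were 4243 bp wide at the median and covered 33.3% of the window, and from 85 to 90 Mb on chromosome 2 there were 284, with a median of 4485 bp and a coverage of 31.1%. The windows of Csmd3 and Lrrc4c had medians of 3294 and 3200 bp, close to the autosomal 3092 bp. Median log2 ratios were 1.29 and 1.42 in the other dense windows, and their median inputs 10.8 and 9.91 reads per bin. The quality flag was carried by 37.5% and 45.4% of their peaks, and mean p was at most 0.05 in 10.4% and 5.63%. Both shares were lower around Csmd3 (34.5% and 2.10%) and Lrrc4c (29.3% and 2.18%). A log2 ratio above 2 was found in 8.33% and 12.0% of peaks in the other dense windows, against 12.6% around Csmd3 and 11.8% around Lrrc4c. The Csmd3 flanks (54.5 peaks per Mb) and the upper flank of Lrrc4c (56.8) were about as dense as those windows (57.6 and 56.8 per Mb), and the genes were not (25.8 and 33.6). These differences were not tested, because all these windows were chosen for their peak number.

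**Figure D4:**
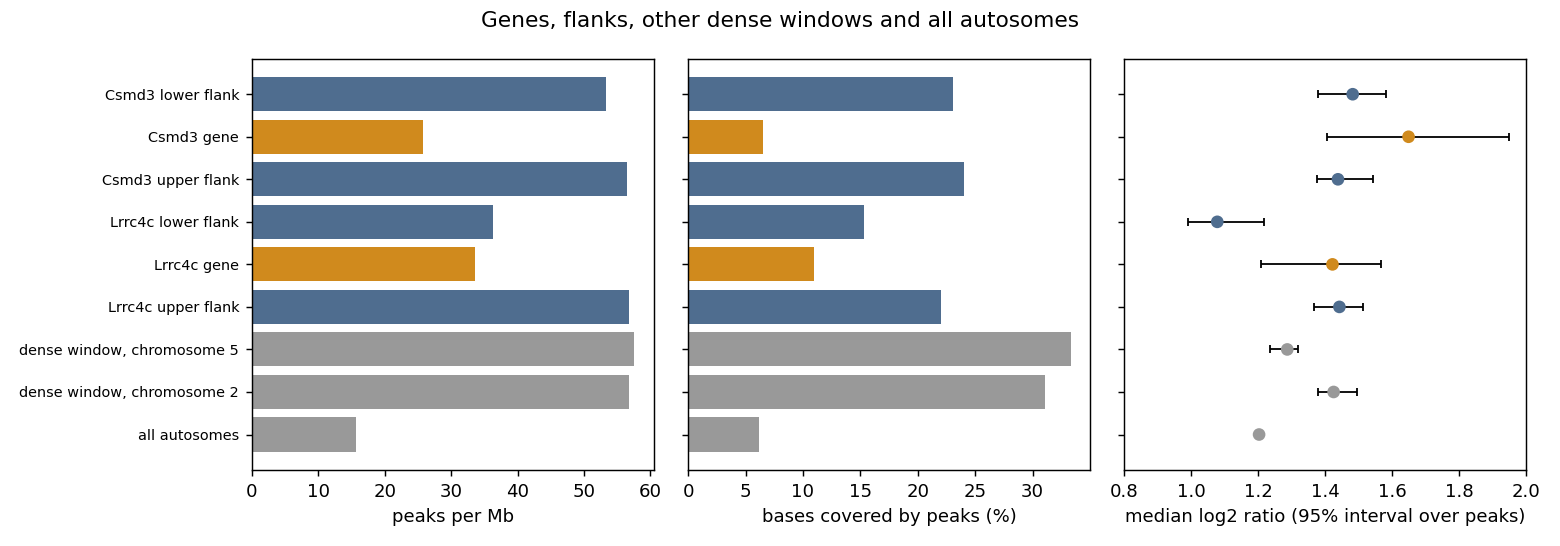
Peaks per Mb, share of bases covered by peaks, and median log2 ratio with its 95% interval over peaks, for the flanks (blue) and genes (orange) of the Csmd3 and Lrrc4c windows and, in grey, 55 to 60 Mb on chromosome 5, 85 to 90 Mb on chromosome 2 and all autosomes. The genes have 25.8 and 33.6 peaks per Mb, between the autosomal 15.6 and the 53.3 to 56.8 of the 3 dense flanks.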

How the data were processed

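Per the submitters' processing notes, the build was mm9 and the aligner Bowtie 0.12.7 for the 2 ChIP and 2 input libraries. Not given in the sources used here are the peak caller, the treatment of duplicates and of reads with several alignments, and how libraries were joined. A false discovery rate of 0.20 stands in the name of the list. Mean ChIP and input values per bin are signal averaged over a peak's bins, per the file headers, and the deposited scaled input was input times 2.42 throughout. The highest bin of a peak is a whole-number ChIP count, per the file headers. The log2 ratio and the −log10 p values (read as mean and smallest p of a peak's bins) were used as deposited. How the p was computed is not given.

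Peaks were assigned to windows, genes and 0.5 Mb steps by midpoint. Window and gene borders, the members and the lists were chosen with earlier results of these data known. Covered bases were clipped to each stretch, and autosomal density, members included, was counted over the distance between the first and the last peak of each autosome. Bin numbers were inferred as the number nearest width over 200 bp that made both sums whole (tolerance 1e-06), which succeeded in all 467 peaks and lay within 1 of that quotient in 390. Summed counts rest on this. Folds and density ratios have exact conditional binomial intervals, shares exact Clopper-Pearson intervals and medians order-statistic intervals. Reads are not independent molecules, so these cover counting error only; a floor of 3 counts stood in for 0. The calculations were tested on simulated data. No test across samples was possible.

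In each window the text names the 3 peaks with the largest and the smallest ratio, the widest, the highest in ChIP and the smallest in mean p, those nearest the gene borders, those of input under 0.25 or over 4 times the list's median, the longest gaps, and the extreme steps. Alternatives were the quality flag, mean p at most 0.05, merging under 1 kb, overlap in place of midpoint, covered bases, shifted borders, shorter flanks, ratios from mean counts, ordinary input and weighting by width. Sequences of the peaks were not analysed here, because no mm9 genome was used. The tools were scipy 1.17.1, numpy 2.4.6, pandas 2.3.3 and, for figures, matplotlib 3.10.9, in Python 3.11.15.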

Additional observations from a re-analysis of the deposited data

How the results depend on the processing

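Peak number was within 1.5 times of the value given after merging and by overlap (230 and 239 peaks around Csmd3, 225 and 229 around Lrrc4c). The quality flag left 82 and 67 peaks, and mean p at most 0.05 left 5 and 5, fewer by construction. The density ratio of Csmd3 to its flanks was 0.296 with the quality flag, 0 with mean p at most 0.05 (no peak in the gene) and 0.280 by covered bases; under the other alternatives it ranged from 0.461 to 0.535. That of Lrrc4c was 0 with mean p at most 0.05 and otherwise 0.548 to 0.763; its interval held 1 with flagged peaks (0.273 to 1.06) and with flanks of 1 Mb. With mean p at most 0.05 the intervals of both genes held 1 (0 to 3.46 and 0 to 2.81). Every alternative gave a ratio below 1 for both genes.

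From mean counts, with 1 added to each, the median log2 ratio was 1.25, 1.40 and 1.24 in the Csmd3 window, gene and flanks and 1.14, 1.16 and 1.13 in those of Lrrc4c. Among flagged peaks it was 1.63, 1.95 and 1.62 in the Csmd3 window, gene and flanks, and 1.50, 1.62 and 1.47 in the Lrrc4c window, gene and flanks. With mean p at most 0.05 it was 1.91 in the Csmd3 window and flanks and 1.79 in those of Lrrc4c, and no gene peak was left to give a value. The flag and the p select on the same contrast, so higher ratios there can follow from the selection. Weighting by width gave 1.30 in the Lrrc4c window, and the cause was not tested. No autosomal median was computed under these alternatives. Whether the windows stay above the autosomes under them was therefore not tested. No paired analysis was possible because values per library are absent from the table used, which also kept replicates from being left out in turn.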
